A study of Homo sapiens with 8 samples.

Results

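A set of 9 transcription factor genes that mark podocytes or the developing nephron and its stroma were followed in AB8/13 cells after knockdown of ATOH8: WT1, TCF21, LMX1B, FOXC1, FOXC2, DACH1, PAX2, PAX8 and FOXD1. Their rows were found in the count table by Ensembl gene identifier, and all 9 of 9 were present among the 60564 genes kept. AB8/13 is an established human podocyte cell line, conditionally immortalised so that it divides at the lower temperature and stops dividing at the higher one. All libraries came from this 1 line, after expansion at 33 °C and 5 days at 37 °C. The control group (4 libraries) received a non-targeting shRNA and the knockdown group (4 libraries) an shRNA against ATOH8, both by lipid transfection. The comparison asks which of the 9 genes changed in RNA level when ATOH8, a basic helix-loop-helix transcription factor, was reduced.

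Podocytes are the filtering epithelial cells of the glomerulus, and their state is held by a small set of transcription factors. WT1 is a zinc finger factor needed for nephron formation and for slit diaphragm genes in the adult podocyte, and TCF21 is a basic helix-loop-helix factor of the glomerular lineage. LMX1B is a LIM-homeodomain factor mutated in nail-patella syndrome, FOXC1 and FOXC2 are paired forkhead factors of the glomerular mesenchyme and podocyte, and DACH1 is a corepressor-recruiting nuclear factor of the podocyte. PAX2 and PAX8 are paired-box factors that specify the nephron, and in the mature glomerulus they are found in parietal epithelial cells rather than in podocytes. FOXD1 is the forkhead factor of the renal stromal progenitors.

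Of the 9 genes, 8 had enough counts to test and 1, LMX1B, was too low. PAX2 fell to 71.0% and FOXD1 rose to 124% of the control level in the knockdown libraries. The other 6 tested genes (WT1, TCF21, FOXC1, FOXC2, DACH1 and PAX8) did not pass the test. So 1 gene was called higher and 1 lower, 25% of those tested, while 51.1% of all 16884 genes tested were called (25.2% higher and 25.9% lower) at an adjusted p of 0.05 in edgeR's quasi-likelihood test. The control and knockdown libraries did not overlap for 2 of the 8 tested genes, PAX2 and FOXD1, against 45.6% of all genes tested. The median log2 fold change of the 8 tested genes was 0.12, and that of all genes tested was -0.0007.

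Promoter letters are shown for the genes that were called, PAX2 and FOXD1, and for PAX8, the paralog of PAX2 that was not called. Each run is the 250 bases before an annotated start, 5′ to 3′ on the gene's strand, from RefSeq on GRCh38.p14, a later build than the hg19 of the counts. Capitals mark E-boxes, the motif of basic helix-loop-helix factors, spelled CANNTG; this motif reads the same on both strands. CAGCTG is 1 of the words it includes.
PAX2, first start, chr10:100735146-100735395, plus strand: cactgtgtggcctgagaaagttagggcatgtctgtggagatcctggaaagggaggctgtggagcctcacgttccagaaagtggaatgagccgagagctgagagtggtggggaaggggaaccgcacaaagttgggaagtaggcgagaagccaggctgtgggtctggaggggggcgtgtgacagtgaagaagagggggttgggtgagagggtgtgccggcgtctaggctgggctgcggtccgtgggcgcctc
PAX2, second start, chr10:100745332-100745581, plus strand: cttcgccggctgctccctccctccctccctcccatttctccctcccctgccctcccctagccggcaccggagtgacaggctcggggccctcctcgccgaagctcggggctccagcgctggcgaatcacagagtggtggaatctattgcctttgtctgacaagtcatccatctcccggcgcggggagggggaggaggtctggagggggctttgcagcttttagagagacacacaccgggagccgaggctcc
PAX8, chr2:113278922-113279171, minus strand: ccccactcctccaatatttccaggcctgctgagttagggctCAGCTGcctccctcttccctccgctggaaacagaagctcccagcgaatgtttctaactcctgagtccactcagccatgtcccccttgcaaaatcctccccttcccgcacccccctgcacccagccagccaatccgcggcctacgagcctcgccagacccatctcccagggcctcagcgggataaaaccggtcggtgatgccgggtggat
FOXD1, chr5:73448778-73449027, minus strand: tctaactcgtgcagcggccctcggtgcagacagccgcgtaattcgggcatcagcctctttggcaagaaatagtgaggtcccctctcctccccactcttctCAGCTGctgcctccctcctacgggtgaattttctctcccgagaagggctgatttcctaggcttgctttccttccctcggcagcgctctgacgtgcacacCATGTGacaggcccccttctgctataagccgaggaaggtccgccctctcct
Neither PAX2 window held the letters CANNTG. The PAX8 window held CAGCTG with its first base 209 bases before the start, and the FOXD1 window held CAGCTG at 150 and CATGTG at 51 bases before the start. In all, 8 of the 9 genes had an entry, in 12 windows, and 6 windows held an E-box, while 61.8% of 35116 RefSeq promoter windows of the same length did. CAGCTG was in 3 of the 12 windows, those of PAX8 and FOXD1 and 1 of WT1, and in 14.0% of all windows. The windows of FOXC1 and DACH1 held none, TCF21 had CAGATG at 243 and CAGTTG at 206 and 172 bases before its start, and LMX1B had CAAATG at 51. These matches describe letters and not binding, and the files hold no measure of binding.

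ATOH8 itself had 175, 160, 122 and 128 counts in the control libraries and 51, 71, 61 and 53 in the knockdown libraries. Levels are CPM, the counts of a gene per 1000000 counts of its library after TMM scaling, as mean ± SD with n = 4 libraries per group throughout. ATOH8 fell from 5.83 ± 0.66 to 2.43 ± 0.33 CPM, with a log2 fold change of -1.26 and an exact two-sided permutation p of 0.0286, the smallest that 4 against 4 libraries can give. Libraries held between 21108695 and 27109043 counts, of which mitochondrial genes took 4.37% to 5.09%. The label of the cells was checked against podocyte markers: NPHS1 (nephrin) had 0 to 6 counts and PTPRO 2 to 8, while SYNPO (synaptopodin) had 380 to 645 counts and PODXL (podocalyxin) 142 to 267. In all, 6 of 13 podocyte markers had enough counts to test, and 66.7% of these were called, beside 51.1% of all genes tested. Of the 6, 2 rose (SYNPO and NES), 2 fell (PODXL and PLA2R1) and 2 did not pass (WT1 and TCF21). Their median log2 fold change was 0.03. The summed level of the 13 ran from 61.0 to 64.1 CPM in the control and from 65.5 to 75.0 CPM in the knockdown libraries. Within it SYNPO rose from 17.2 ± 1.1 to 24.9 ± 2.1 CPM and NES from 7.40 ± 0.69 to 14.9 ± 2.7 CPM. PLA2R1 fell from 21.6 ± 0.97 to 13.7 ± 0.80 CPM and PODXL from 9.19 ± 0.85 to 7.52 ± 0.97 CPM. NPHS1, a defining slit diaphragm gene of the labelled cell type, was at or near 0 in both groups and too low to test. It had 2 counts in all in the control and 16 in the knockdown libraries. The ratio was 8.32, with an exact interval of 1.96 to 74.6 that covers counting error only. In such bulk RNA, fewer cells of a type and less RNA per cell cannot be told apart.

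**Figure D1:**
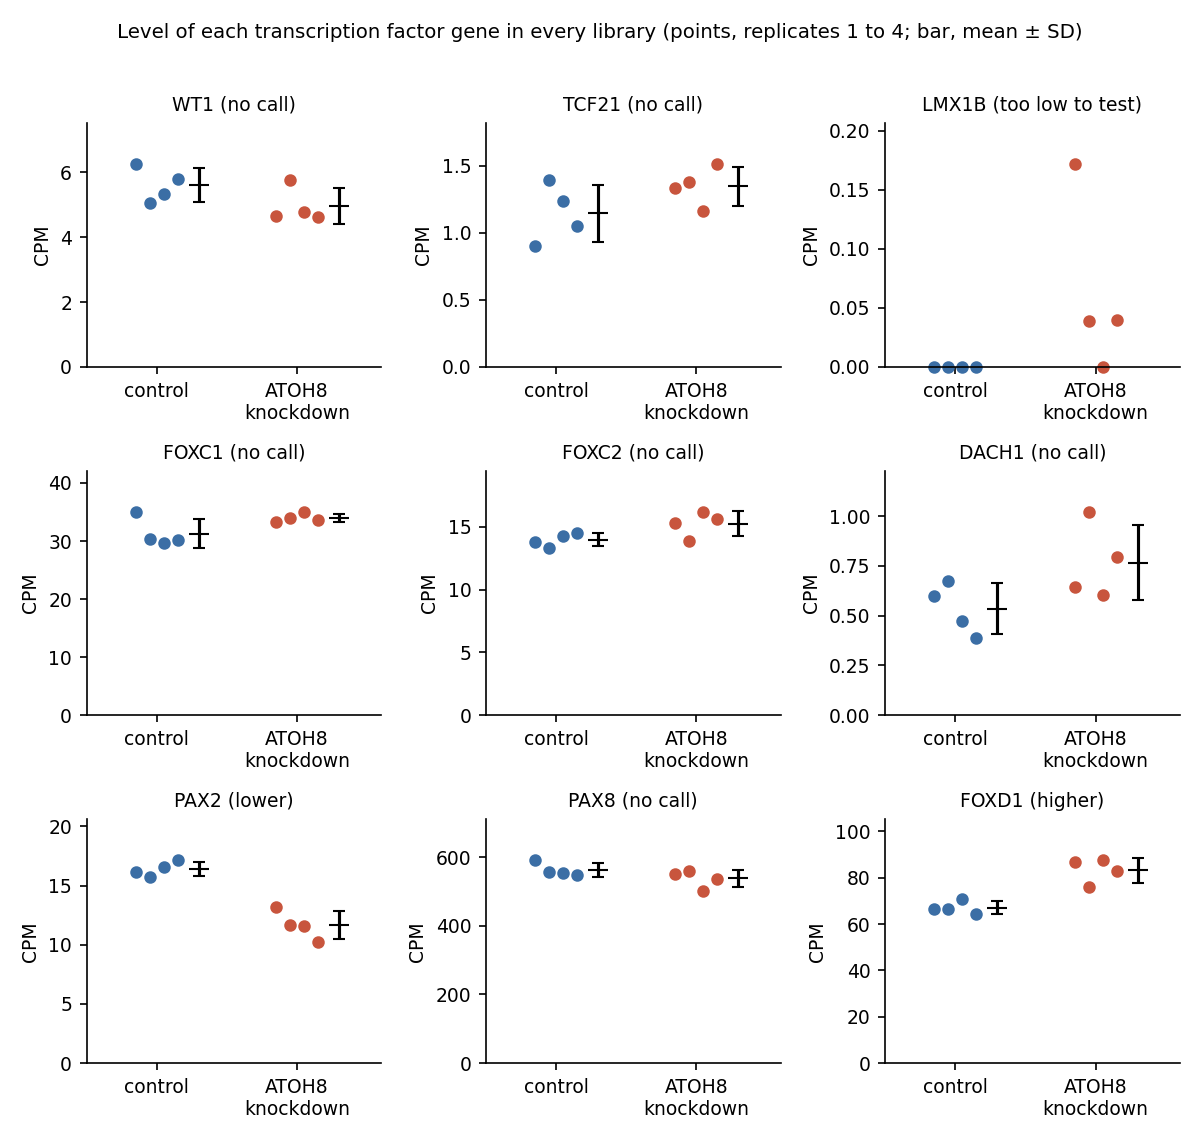
Level of each of the 9 genes in CPM (vertical axes, from 0) in the 4 control and the 4 knockdown libraries; points are libraries in the order of replicates 1 to 4, and bars give the mean ± SD for the genes that could be tested. The control and knockdown points are separate for PAX2 and FOXD1 and overlap for the others, and LMX1B is at 0 in all 4 control libraries.

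The factors that define the mature podocyte were low. WT1 was at 6.26, 5.07, 5.32 and 5.78 CPM in control replicates 1 to 4 and at 4.64, 5.77, 4.78 and 4.62 CPM in knockdown replicates 1 to 4. Knockdown replicate 2 lay within the control range, and the other 3 knockdown libraries lay below every control library. The means were 5.61 ± 0.53 and 4.95 ± 0.55 CPM, with a log2 fold change of -0.18 (SE 0.11) and an adjusted p of 0.170 in edgeR's test. The 95% interval of the difference ran from 75.8% to 103% of the control level. Gene counts do not separate the splice forms of WT1 with and without the KTS insert.

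TCF21 was lower still, with 24, 37, 26 and 27 counts in the control libraries and 31, 35, 27 and 38 in the knockdown libraries. In CPM these were 1.14 ± 0.21 and 1.35 ± 0.14, and the groups overlapped. Its log2 fold change was 0.24 (SE 0.21), with an adjusted p of 0.369 in edgeR's test and an interval of 87.1% to 160% of control.

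LMX1B had 0 counts in each of the 4 control libraries and 4, 1, 0 and 1 counts in the knockdown libraries. It did not pass the count filter and has no test. A total of 0 in 100647774 control counts allows up to 0.0298 CPM (3 counts over the group), and this limit covers counting error only. The 6 knockdown counts, 4 of them in 1 library, averaged 0.063 CPM.

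DACH1 was the lowest of the tested genes, with 16, 18, 10 and 10 counts in the control libraries and 15, 26, 14 and 20 in the knockdown libraries. The levels were 0.53 ± 0.13 and 0.77 ± 0.19 CPM, and the groups overlapped. Its log2 fold change of 0.51 (SE 0.28) was in size above that of PAX2, yet its adjusted p was 0.131 in edgeR's test. The interval ran from 95.7% to 213% of control, the widest of the 8 tested genes.

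FOXC1 and FOXC2 stood at moderate levels. FOXC1 was at 35.0, 30.3, 29.6 and 30.2 CPM in the control libraries and at 33.3, 34.0, 35.0 and 33.7 CPM in the knockdown libraries. The 4 knockdown libraries lay above 3 of the controls, and control replicate 1 was as high as the highest knockdown library. The log2 fold change was 0.12 (SE 0.05), with an unadjusted p of 0.0288 and an adjusted p of 0.0555 in edgeR's test, and an interval of 101% to 117% of control. Without control replicate 1 it was 0.18 with an adjusted p of 0.0037, and FOXC1 was called higher in 4 of 13 alternative fits. Control replicate 1 also had the highest mitochondrial share of all libraries, 5.09%, and the gene whose level followed FOXC1 most closely across the libraries was the mitochondrial MT-ND4; the part of this share in the FOXC1 values was not tested.

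FOXC2 was at 13.8, 13.3, 14.3 and 14.5 CPM in the control libraries and at 15.3, 13.9, 16.2 and 15.6 CPM in the knockdown libraries. Knockdown replicate 2 fell within the control range and the other 3 lay above it. The log2 fold change was 0.13 (SE 0.06), with an adjusted p of 0.101 in edgeR's test and an interval of 99.7% to 120% of control. Without knockdown replicate 2 it was 0.17 with an adjusted p of 0.0339. The ratio of FOXC1 to FOXC2 per length of transcript was 1.66 ± 0.16 in the control and 1.65 ± 0.10 in the knockdown libraries; this ratio and that of PAX8 to PAX2 below were chosen after the values were seen and are given with no test.

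PAX2 was the gene of the 9 that fell. Its counts were 431, 420, 349 and 442 in the control libraries and 306, 298, 270 and 256 in the knockdown libraries. In CPM it was at 16.2, 15.8, 16.6 and 17.2 in the controls and at 13.2, 11.7, 11.6 and 10.2 after knockdown. Each knockdown library lay below each control library. The means were 16.4 ± 0.60 and 11.7 ± 1.2 CPM, with a log2 fold change of -0.49 (SE 0.07), an interval of 64.3% to 78.5% of control and an adjusted p of 9.5e-07 in edgeR's test. The fold change was larger in size for 16.0% of all genes tested. PAX2 was called lower in 13 of 13 alternative fits, with log2 fold changes from -0.56 to -0.43.

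Its paralog PAX8 was far more abundant, with 11633 to 15775 counts per library, and took 76.2% to 80.9% of all counts of the 9 genes. PAX8 was at 591, 555, 553 and 548 CPM in the control libraries and at 551, 561, 502 and 537 CPM in the knockdown libraries. The groups overlapped, with control replicate 1 the highest and knockdown replicate 3 the lowest. The log2 fold change was -0.06 (SE 0.03), with an adjusted p of 0.131 in edgeR's test, and an interval of 91.2% to 101% of control, which lies wholly above the 64.3% to 78.5% of PAX2. Per kilobase, the ratio of PAX8 to PAX2 was 30.9, 29.7, 28.1 and 26.9 in the controls and 35.3, 40.4, 36.5 and 44.5 in the knockdown libraries.

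PAX2 and PAX8 both belong to the 11 parietal epithelial markers. All 11 of them could be tested, and 63.6% were called, beside 51.1% of all genes tested. Of the 11, 4 rose (CDH6, KRT8, KRT19 and PROM1), 3 fell (PAX2 and CD24 among them) and 4 did not pass. Their summed level ran from 2534 to 2565 CPM in the control and from 2678 to 2755 CPM in the knockdown libraries, opposite in direction to PAX2. Their part in the PAX2 result was not tested.

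FOXD1 was the gene of the 9 that rose. It had 1778, 1770, 1491 and 1661 counts in the control libraries and 2013, 1930, 2035 and 2080 in the knockdown libraries. In CPM this was 66.7, 66.4, 70.9 and 64.5 in the controls and 86.6, 75.8, 87.6 and 82.8 after knockdown. The groups did not overlap, and knockdown replicate 2 was the nearest to the controls. The means were 67.1 ± 2.7 and 83.2 ± 5.3 CPM, with a log2 fold change of 0.31 (SE 0.04), an interval of 117% to 132% of control and an adjusted p of 5.97e-07 in edgeR's test. For 30.7% of all genes tested the fold change was larger in size than that of FOXD1. FOXD1 was called higher in 13 of 13 alternative fits, with log2 fold changes from 0.28 to 0.36.

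FOXD1 is on the list of 12 mesangial and stromal markers, of which 8 could be tested, 5 rose (FOXD1, PDGFRB, ACTA2, THY1 and CSPG4) and 3 fell (TBX18, NT5E and RGS5). Calls were thus 100% of those tested, beside 51.1% of all genes tested. The summed level of the list ran from 586 to 610 CPM in the control and from 569 to 617 CPM in the knockdown libraries. Within it THY1 rose from 1.69 ± 0.26 to 19.1 ± 1.1 CPM and CSPG4 from 22.8 ± 0.55 to 83.4 ± 6.9 CPM, both larger changes than that of FOXD1, while NT5E, which held the most counts of the list, fell from 382 ± 8.8 to 272 ± 21 CPM. ITGA8, a defining mesangial gene, had 0 to 1 counts. The part of these cells' markers in the FOXD1 result was not tested.

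**Figure D2:**
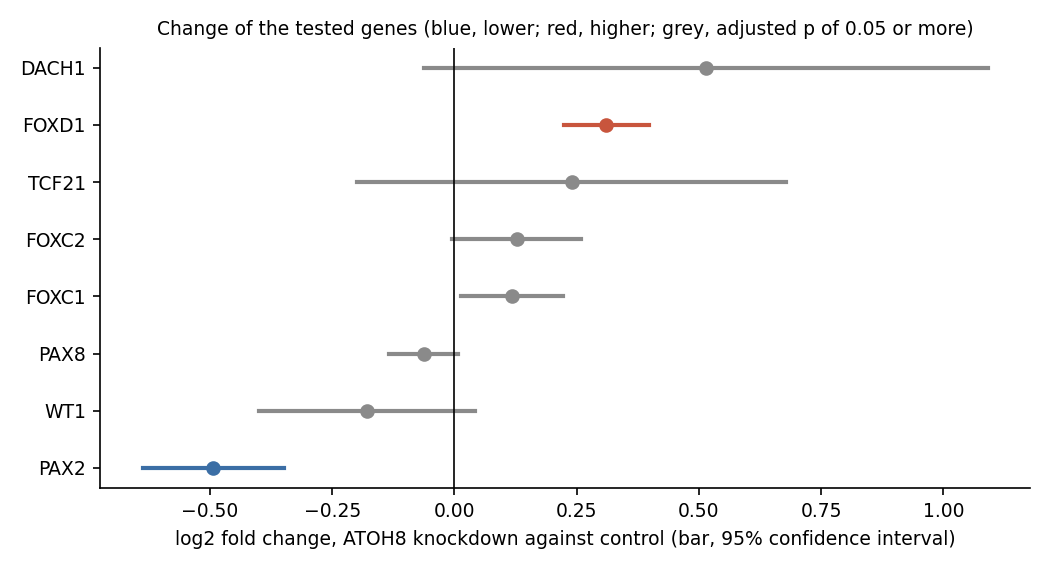
Log2 fold change of ATOH8 knockdown against control (horizontal axis) for the 8 tested genes; points are edgeR estimates and bars 95% confidence intervals. PAX2 at -0.49 and FOXD1 at 0.31 were called, the interval of FOXC1 starts just above 0 without passing after adjustment, and DACH1 and TCF21 have the widest intervals.

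Divided by the length of their exons (GENCODE release 29), the genes kept 1 order in both groups. In the control libraries PAX8 was highest at 75.9 ± 2.7 CPM per kilobase, then FOXD1 at 25.6 ± 1.0, FOXC1 at 7.97 ± 0.64, FOXC2 at 4.81 ± 0.18 and PAX2 at 2.63 ± 0.10. WT1 followed at 1.36 ± 0.13, then TCF21 at 0.25 ± 0.05, DACH1 at 0.099 ± 0.024 and LMX1B at 0. The ranges of neighbours in this order did not overlap in either group. The smallest step in the control libraries was from FOXC1 to FOXC2, by 1.66 times, and in the knockdown libraries from PAX2 to WT1, by 1.55 times. With the longest transcript as the length the order was the same, but PAX8 stood at 135, PAX2 at 3.96 and WT1 at 1.80 CPM per kilobase in the controls, so the distance of PAX8 from the others depends on the length used.

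**Figure D3:**
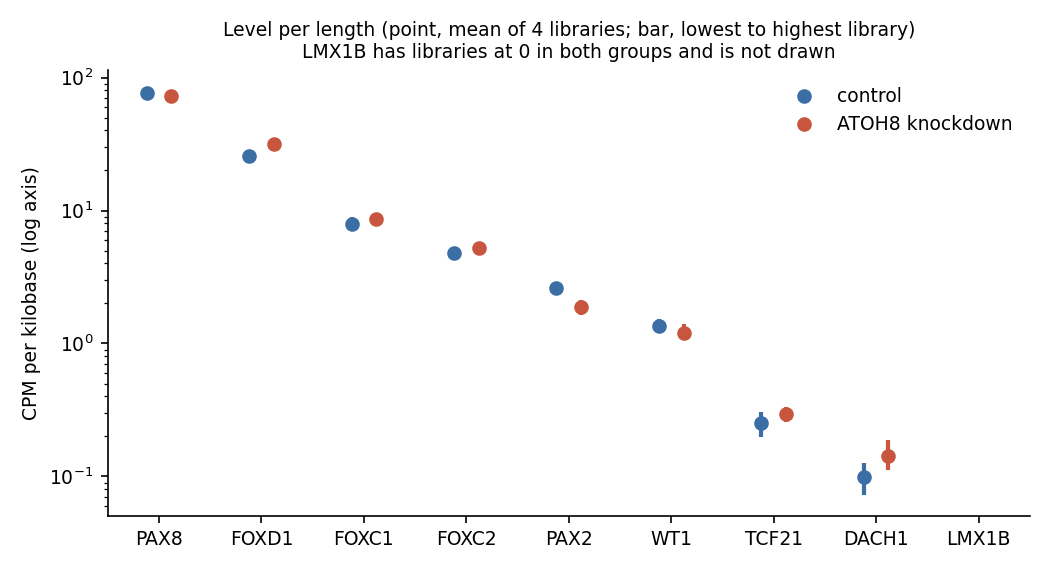
Level per kilobase of exon (vertical log axis) in control and knockdown libraries; points are means of 4 libraries and bars run from the lowest to the highest library. The order from PAX8 (75.9 CPM per kilobase in the controls) to DACH1 (0.099) is the same in both groups, and LMX1B is not drawn because libraries of both groups are at 0.

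Noncoding genes that overlap or start beside the 9 genes were few and low. Of 10 listed, 8 were matched by symbol, 4 had enough counts to test and 0 were called by edgeR, with 2 at an unadjusted p under 0.05 and 0 called by DESeq2. WT1-AS, antisense to WT1, was at 1.58 ± 0.14 CPM in the control and 1.15 ± 0.24 CPM in the knockdown libraries, a log2 fold change of -0.46 with an adjusted p of 0.0687 (0.0355 without knockdown replicate 4). PAX8-AS1 was at 1.15 ± 0.49 and 1.67 ± 0.37 CPM, a log2 fold change of 0.52 with an adjusted p of 0.0838 (0.0161 without control replicate 4). TARID, antisense to TCF21, had 7 to 21 counts, with a log2 fold change of 0.25 and an adjusted p of 0.552, and FOXC2-AS1 had 13 to 22 counts, with -0.30 and 0.347. The libraries were directional, but no source used here says whether the counting used the strand, so reads of these genes and of the overlapping factor cannot be told apart with certainty.

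Genes listed as partners of the 9 factors changed in both directions. Of 29 listed partners, 24 could be tested, 10 rose and 7 fell, with a median log2 fold change of 0.10. The share called was 70.8%, beside 51.1% of all genes, and is a description only. TCF21 binds DNA with class I basic helix-loop-helix partners, and these moved apart. TCF12 (HEB) rose from 84.3 ± 3.8 to 105 ± 2.5 CPM (log2 fold change 0.31), while TCF4 (E2-2) fell from 37.4 ± 1.1 to 27.3 ± 1.7 CPM (-0.46) and TCF3 (E2A) fell from 68.7 ± 1.2 to 62.6 ± 1.4 CPM (-0.14). All 3 of these listed partners were called, where 51.1% of all genes tested were. TCF21 itself showed no call, but it had only 24 to 38 counts per library. Its interval of 87.1% to 160% of control includes the 124% of TCF12, so the calls do not show that TCF21 differed from it.

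Among WT1 partners, the RNA methylation complex subunit WTAP fell (log2 fold change -0.33) and so did the WT1 corepressor BASP1 (-0.12), while FHL2, a LIM-domain cofactor, rose (0.21). WTIP at 0.12 and CITED2 at 0.03 did not pass, and WTIP passed without control replicate 3 (adjusted p = 0.0493) or knockdown replicate 4 (0.0355). Of 6 listed cofactors of LIM-homeodomain factors such as LMX1B, LDB2 and LMO2 were too low to test. Among the others, SSBP3 rose (0.30) and LMO4, a LIM-only competitor, rose (0.20), while the bridging factor LDB1 at 0.08 and SSBP2 at 0.02 did not pass. LDB1 passed without control replicate 1 or knockdown replicate 3, with an adjusted p of 0.0348 in both. PAXIP1, a PAX-interacting subunit of a histone methyltransferase complex, fell (-0.19), its partner PAGR1 at 0.03 did not pass, and KMT2D, a methyltransferase of that complex, rose (0.35).

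Of the genes of the EYA and sine oculis homeobox families, which work with DACH proteins, SIX4 rose (log2 fold change 0.46) and SIX5 rose (0.16), while EYA3 at -0.01 and EYA4 at 0.24 did not pass. The SIX5 call was lost without control replicate 2 (adjusted p = 0.104) or 4 (0.0704) and without knockdown replicate 1 (0.0962), 3 (0.0616) or 4 (0.0803), and in DESeq2's Wald test (0.069). The corepressor genes NCOR1 (0.24) and SIN3A (0.13) rose and HDAC3 (-0.29) fell. CBFB, the RUNX cofactor, fell (-0.55) and the zinc finger factor GLIS1 rose (0.49). Both count in the partner list and its share called, although neither is tied here to a given factor of the set.

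**Figure D4:**
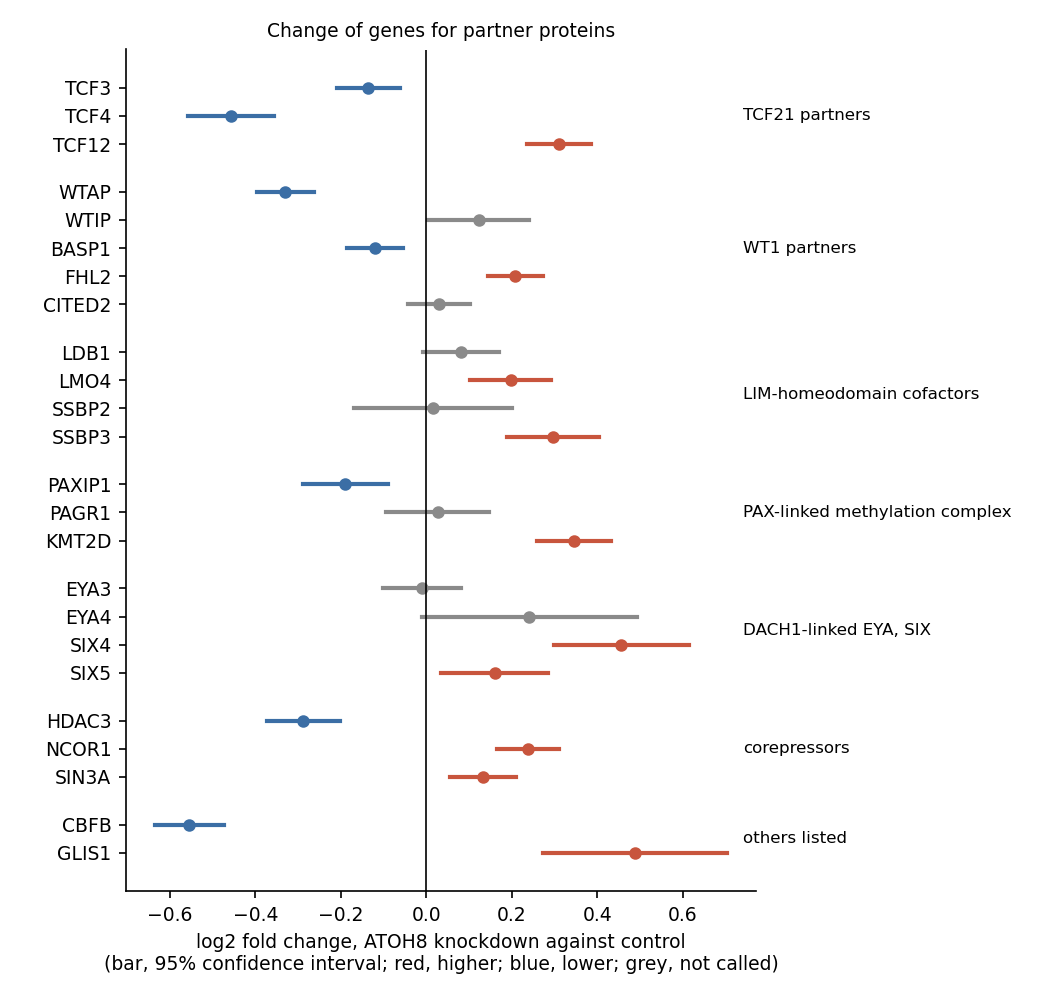
Log2 fold change of ATOH8 knockdown against control (horizontal axis) for the 24 tested genes of the partner list. They are grouped by factor or role, with CBFB and GLIS1 as others listed. Points are edgeR estimates and bars 95% confidence intervals, red for higher, blue for lower and grey for not called. TCF3 and TCF4 lie left of 0 and TCF12 right of it.

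Most paralogs of the 9 genes, 14 of 23, were too low to test. Of the 9 tested, 4 rose and 2 fell, with a median log2 fold change of 0.26. Calls thus made up 66.7% of those tested, beside 51.1% of all genes tested. MSC (musculin), a close relative of TCF21, fell from 13.4 ± 0.35 to 7.31 ± 0.38 CPM (log2 fold change -0.87), larger in size than the fold change of any of the 8 tested factors. PAX6 rose (0.26), SKI, a relative of DACH1, rose (0.29), and FOXL2 rose from 0.42 ± 0.12 to 1.46 ± 0.28 CPM (1.81). SKIL fell (-0.10), but not without control replicate 2, 3 or 4 or knockdown replicate 1 or 3, with adjusted p-values from 0.066 to 0.132 in those fits, nor in DESeq2's Wald test (adjusted p = 0.0536). LMX1A, the paralog of LMX1B, had no count in any library.

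Of 45 other transcription factors of the nephron and podocyte, 28 could be tested, 12 rose and 5 fell. The other 11 did not pass, and the median log2 fold change of the 28 was 0.12. As a description, 60.7% of the 28 were called, beside 51.1% of all genes tested. SALL1, a zinc finger factor of nephron progenitors, rose from 26.0 ± 0.99 to 58.6 ± 1.1 CPM (1.17), and NR2F2, an orphan nuclear receptor of mesenchymal cells, rose (0.29). TFAP2B, a distal nephron factor, had 2, 0, 0 and 0 counts in the control and 23, 22, 19 and 17 in the knockdown libraries, a ratio of 42.1 with an exact interval of 11.3 to 354 that covers counting error only. Both control counts of TFAP2B were in control replicate 1, and without that library the controls had none; the fitted log2 fold change was then 7.36 against 5.07, a value that depends on the prior count and is no bound. LHX1, a LIM-homeodomain factor of the early nephron, fell from 25.6 ± 1.2 to 20.6 ± 0.49 CPM (-0.31), and HNF4G (-0.63) and SIM1 (-0.73) also fell.

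Genes listed as podocyte targets of WT1, LMX1B, TCF21 or the FOXC factors were called in both directions. Of 31 listed, 9 were too low to test, NPHS1 among them, and of the 22 tested 13 rose and 9 fell (100% called, beside 51.1% of all genes tested, a description only), with a median log2 fold change of 0.23. SULF2, a heparan sulfatase, rose from 82.2 ± 2.9 to 139 ± 2.7 CPM (0.75), and its relative SULF1 (1.42) and the growth factor receptor IGF1R (0.61) rose. NPNT (nephronectin), a basement membrane ligand, fell from 28.0 ± 0.72 to 14.9 ± 0.90 CPM (-0.92), and KIRREL1 (Neph1), a slit diaphragm partner of nephrin, fell (-0.36), as did PLA2R1 (-0.65). By leave-one-out and the other alternatives, 12 to 14 of the list were called higher and 7 to 9 lower.

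Signals of nephron progenitors and renal development also went both ways: of 26 listed, 15 could be tested, 8 rose and 4 fell, with a median log2 fold change of 0.17. The share called was 80%, beside 51.1% of all genes tested, and is a description only. LGR5 (1.98), the protocadherin DCHS1 (1.75) and CDH6 (0.55) rose. FGFR1 (-0.21), NOTCH2 (-0.11) and GDNF (-0.11), the ureteric bud ligand, fell. The GDNF call was lost without control replicate 1 or 4 or knockdown replicate 1 or 4, with adjusted p-values from 0.0925 to 0.108, and in DESeq2's Wald test (0.0707).

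**Figure D5:**
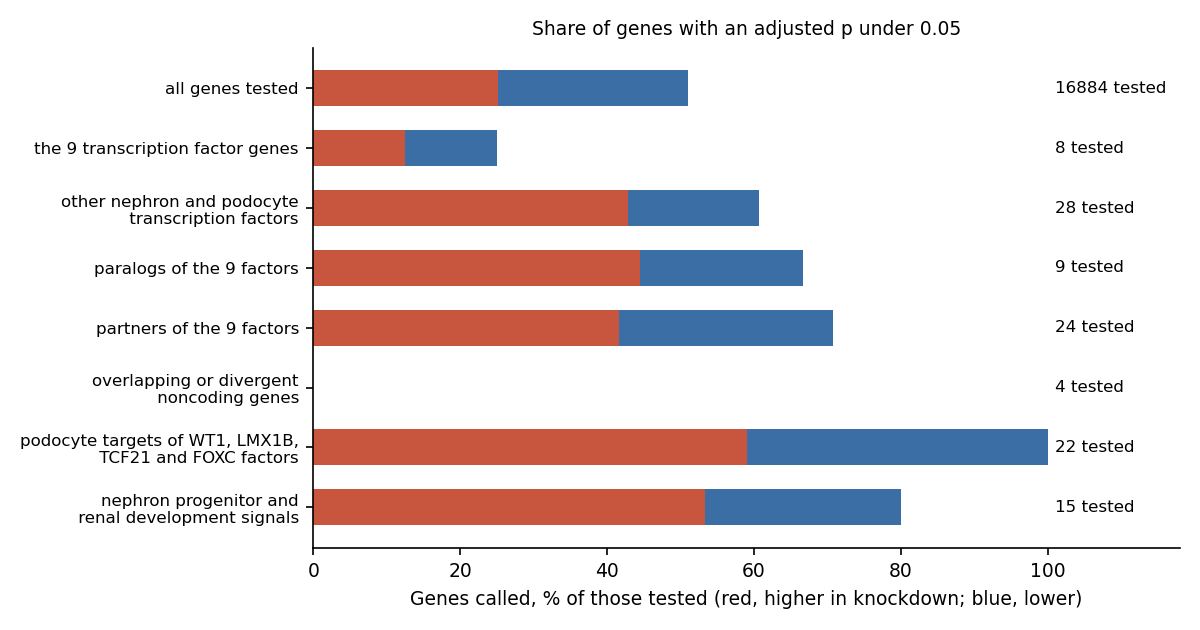
Share of tested genes with an adjusted p under 0.05 (horizontal axis, % of those tested), red for higher and blue for lower in knockdown; the number tested stands at the right. The 9 factors, with 8 tested, are at 25%, all genes at 51.1%, partners at 70.8% and the 4 noncoding genes at 0.

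Markers of other cells were measured beside these results. Of 11 glomerular endothelial markers 6 could be tested, 4 rose and 0 fell, and their summed level ran from 36.1 to 39.2 CPM in the control and from 53.6 to 55.1 CPM in the knockdown libraries, while PECAM1 had 0 to 1 counts and EMCN none. Of 10 proximal tubule markers 4 could be tested, 3 rose (ANPEP, GGT1 and CUBN) and 1 fell (AQP1), with LRP2 at 0 to 1 counts. The summed level of the 10 ran from 94.3 to 110 CPM in the control and from 136 to 144 CPM in the knockdown libraries. Within it ANPEP rose from 28.2 ± 2.6 to 63.8 ± 2.3 CPM, while AQP1 fell from 5.19 ± 0.93 to 1.14 ± 0.16 CPM. None of 9 distal tubule and collecting duct markers could be tested, and of 9 leukocyte markers 4 could, 2 rose and 0 fell, with PTPRC at 0 to 2 counts. Shares called of those tested were 66.7% (endothelial), 100% (proximal tubule) and 50% (leukocyte), beside 51.1% of all genes tested. The part of these markers in the changes of PAX2 and FOXD1 was not tested.

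The genes whose level followed each factor most closely over the 8 libraries are given as a description, with Pearson's r on log2 CPM and no test, since all share the same libraries and the 2 groups. PAX2 was followed by FSTL3 (r = 0.995), CYP1B1 (0.988) and PDCL3 (0.987), all 3 lower after knockdown, with log2 fold changes of -0.24, -0.35 and -0.45. FOXD1 was followed by C19orf48P (0.985), KRT8P3 (0.984) and PDLIM4 (0.983), higher by 0.24, 0.41 and 0.87; KRT8P3 is a pseudogene of KRT8, so its counts may include reads of that gene. These genes were chosen by their r over both groups, so the direction they share with PAX2 or FOXD1 follows from that choice.

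The closest genes of WT1, TCF21, PAX8 and DACH1 had lower r than those of PAX2 and FOXD1. WT1 was followed by PDCD6IPP2, a pseudogene, (r = 0.949), KIF15 (0.949) and GDNF (0.944), and TCF21 by CCDC174 (0.926), CEBPG (0.919) and STX16 (0.917). FOXC1 was followed by MT-ND4 (0.985), MT-ND4L (0.973), which overlaps it, and ARHGEF10L (0.973), and FOXC2 by SYNGR2 (0.993), RPL27A (0.965) and CAPG (0.964). PAX8 was followed by ASH1L (0.977), PRRC2C (0.971) and VCAN (0.941), and DACH1 by HELZ (0.976), the pseudogene NPIPP1 (0.964) and NCOA2 (0.952).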

How the data were processed

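Polyadenylated RNA from 8 libraries was sequenced, 4 per group. The authors' deposited table gives 1 whole-number count per gene and library. The submitters' processing notes name STAR, featureCounts, FastQC, DESeq2 and the build hg19. Versions, annotation, strand setting and the treatment of multi-mapping reads: not given in the sources used here. Each could shift counts of overlapping or near-identical genes. Whether the values are plain featureCounts counts is not settled.

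Of 60609 rows, 1 with a missing cell and 44 Y copies of pseudoautosomal genes were left out. A gene name table gave symbols for 60295 genes and GENCODE release 29 for 250 more. Genes were filtered with filterByExpr (10 counts, here 0.398 CPM, in at least 4 libraries, and 15 counts in all), scaled by TMM and tested with edgeR 4.0.16 (quasi-likelihood, robust; R 4.3.3, limma 3.58.1), with Benjamini-Hochberg adjustment over all genes and a threshold of 0.05. Fold changes are log2 of knockdown against control, and 95% intervals use the fit's own t quantile. Depth of 21108695 to 27109043 counts limits the lowest genes, TCF21 and DACH1, the most. On simulated counts (16673 genes), the test recovered 35 of 49 genes with a 1.3-fold change and 33 of 49 at 1.5-fold. It recovered 45 of 48 at 2-fold and 48 of 48 at 3-fold, and of its 167 calls 3.59% were false. Only these few genes were changed in the simulation, with dispersions from the fitted trend, whereas 51.1% of genes tested were called in the data. The recovery and false share therefore do not carry over directly to this comparison. Libraries of a group differed by more than sampling noise (chi-square of 1.89 to 4.42 per gene over 12 pairs).

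The 9 genes and all lists were chosen with earlier results of these data known. Named genes were the 9, ATOH8, every tested partner and noncoding neighbour, up to 3 rising and 3 falling genes by adjusted p from each other list, and the 3 genes most alike (mean log2 CPM of at least 2); further list and marker genes were named after their values were seen. Alternatives were DESeq2 1.42.0 (size factors, Wald test), no filter, the replicate number as a block, a filter of 1 CPM in 4 libraries, leaving out each library, and the longest transcript as length. Some listed genes are not reported here by name.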

Additional observations from a re-analysis of the deposited data

Results flagged for a closer look

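In groups of 4 libraries, a sample was singled out when its gap to the nearest other, as a share of the group's range, exceeded Dixon's 95% critical value. Of 168 groups checked, 11 met this, and chance alone gives about 1 in 20. Among the 9 factors, WT1 was highest in knockdown replicate 2, at 5.77 CPM against 4.62 to 4.78 CPM in the others. FOXC1 was highest in control replicate 1, at 35.0 CPM against 29.6 to 30.3 CPM, and PAX8 in the same library, at 591 CPM against 548 to 555 CPM.

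Control replicate 1 was also the highest control for MT-ND4 (6389 CPM), KIRREL1 (653 CPM), PRRC2C (408 CPM) and TFAP2B (0.075 CPM, 2 counts against none). PRRC2C was lowest in knockdown replicate 3 (311 CPM), which was the highest knockdown library for ARHGEF10L (23.4 CPM) and BASP1 (119 CPM). FHL2 was highest in control replicate 4 (349 CPM). PAX2 and FOXD1 had no such library in either group.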

How the results depend on the processing

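PAX2 stayed lower and FOXD1 higher past the threshold under all 13 alternatives to the fit, and WT1, TCF21 and PAX8 passed under none of the 13, nor DACH1 under the 12 that gave it a value. FOXC1 passed with DESeq2 size factors (log2 fold change 0.12, adjusted p = 0.0492), with the filter of 1 CPM in 4 libraries (0.12, 0.0394) and with the replicate block (0.12, 0.0478), so that 2 of the 9 factors, not 1, were called higher there. With the replicate block, PAX8-AS1 (0.56, adjusted p = 0.0465) and WTIP (0.12, 0.0435) passed as well. Leaving out 1 library each gave FOXC1 values of 0.092 to 0.18, FOXC2 values of 0.10 to 0.17, and 1 to 2 factors called higher. No value changed its sign while called. Genes called in all were 7755 with DESeq2's Wald test, 8979 without a filter, 8802 with the replicate block and 8050 to 8466 with 1 library left out. Replicate numbers were shared between groups, and whether they pair the libraries is not settled. Deviations of same-numbered libraries correlated weakly, at 0.0014 to 0.057, and those of other numbers at -0.082 to 0.033. Libraries of replicates 1, 2 and 4 correlated best with their own number, and those of replicate 3 did not. DACH1, TFAP2B, TARID and FOXC2-AS1 have no value under the filter of 1 CPM. Depth limits LMX1B, DACH1 and TCF21 most.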
